A study of Mus musculus with 36 samples.

Results

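Osteoclasts are the cells that dissolve bone, and 9 genes that mark them or build their resorbing machinery were followed here in adipocyte preparations from 2 fat depots. The genes were chosen by name, with earlier results of these data known: Tnfrsf11a, Nfatc1, Oscar, Calcr, Dcstamp, Ocstamp, Atp6v0d2, Acp5 and Ctsk. Each is read by 1 probe set of an Affymetrix mouse gene array, so that 9 of the 19938 genes named on the array are described. In the epididymal preparations of 6-month-old mice on a high-fat diet (HFD) 5 of the 9 were higher than on chow, led by Atp6v0d2 (82.0-fold), Ctsk (15.9-fold) and Dcstamp (13.3-fold). Of all probe sets with a gene symbol, 9.41% were higher there by the same limits. None of the 9 reached the limits for a call for diet in the bone marrow preparations. Of all probe sets 1.34% reached them there at 6 months and 0.743% at 14 months, so 0 of 9 is near the share. On GRCm38.p6 Atp6v0d2 lies at chr4:19876838-19922566, Ctsk at chr3:95499210-95509387, Dcstamp at chr15:39745930-39760938, Ocstamp at chr2:165395450-165400394, Tnfrsf11a at chr1:105780673-105849444 and Acp5 at chr9:22126727-22135746.

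RNA came from adipocytes of the epididymal fat pad, called peripheral white adipocytes in the sample labels, and from adipocytes floated out of flushed femur and tibia marrow. All mice were male C57BL/6J. Wild type mice were on control chow at 6, 14 or 18 months of age, or on a diet with 60% of its calories from fat at 6 or 14 months, and leptin-deficient ob/ob mice were on chow at 6 months. With both depots this gives 12 groups. The study states that RNA of 6 to 10 mice per group was pooled into 3 preparations, 1 per array. Its methods do not describe the 18-month groups. In the groups they cover, the spread between the 3 arrays is a spread between pools. Which mice entered which pool is not given in the sources used here. The study states that both depots of the diet groups were taken from the same animals. The comparisons between depots below treat all preparations as independent samples. No label says which pools of the 2 depots share mice. With the array numbers as pairs across the depots, no call on a member changed. Because those numbers are not known to mark shared mice, that fit cannot show what the sharing does to the calls.

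An osteoclast forms when precursors of the monocyte lineage fuse. The cytokine RANKL binds its receptor RANK on the precursor, and together with macrophage colony-stimulating factor and co-stimulatory receptors that signal through ITAM adaptors it turns on the transcription factor NFATc1. NFATc1 then drives the genes for fusion and for resorption, in which a proton pump acidifies the space under the cell and proteases digest the bone matrix. Several of these genes are also known from macrophages outside bone, among them Acp5, Ctsk and Atp6v0d2.

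The labelled cell type was checked first. The mean log2 value of 7 adipocyte markers was 11.42 to 12.79 in the 18 epididymal arrays and 6.64 to 8.67 in the 18 bone marrow arrays. The mean of 8 neutrophil granule genes was 12.06 to 12.74 in the bone marrow arrays, against 5.07 to 9.29 in the epididymal arrays. The bone marrow preparations thus held little of the RNA that defines the label and much of another cell type, and in both depots fewer cells of a type and less RNA per cell cannot be told apart. A set of 8 arrays stood apart from the rest: both depots of the 6-month HFD mice (3 arrays each), array 1 of 6-month chow bone marrow and array 3 of ob/ob bone marrow split from the other 28 arrays by at least 1 log2 unit in 18 of the 12146 probe sets with no gene symbol. No label names a batch behind that split, and because all 6-month HFD arrays lie in the set, values with a term for the set are given below where it moved an outcome on these genes. Only 6-month chow and ob/ob bone marrow have arrays both inside and outside the set, so the size of the term comes from them alone. In epididymal comparisons with 6-month HFD mice it shifts the difference by an offset from bone marrow arrays. It therefore cannot test for a batch in the epididymal arrays.

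Promoter sequences are shown for 3 genes on which the results turn, the 250 bases before the transcription start as RefSeq gives them for mouse build GRCm38.p6. For Tnfrsf11a the start used lies inside the gene range given above, which begins at 105780673, so the end of its window overlaps that range. Ctsk and Tnfrsf11a rose in the epididymal preparations of both obese models at 6 months, and Oscar passed the test in no comparison. Capitals mark every match, on either strand, of 4 motifs of factors known in osteoclasts: GGAAA, the core bound by NFAT proteins, GAGGAA, a core bound by PU.1, TGANTCA, the AP-1 site bound by Fos and Jun proteins, and CATGTG, the core of the M-box bound by MITF. GGAAA and GAGGAA can overlap by 4 letters.
Ctsk, chr3:95498960-95499209, plus strand: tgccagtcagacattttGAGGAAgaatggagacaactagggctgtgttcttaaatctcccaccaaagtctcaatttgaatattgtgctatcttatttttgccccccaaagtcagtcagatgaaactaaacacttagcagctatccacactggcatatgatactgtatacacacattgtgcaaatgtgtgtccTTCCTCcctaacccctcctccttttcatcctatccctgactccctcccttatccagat
Tnfrsf11a, chr1:105780473-105780722, plus strand: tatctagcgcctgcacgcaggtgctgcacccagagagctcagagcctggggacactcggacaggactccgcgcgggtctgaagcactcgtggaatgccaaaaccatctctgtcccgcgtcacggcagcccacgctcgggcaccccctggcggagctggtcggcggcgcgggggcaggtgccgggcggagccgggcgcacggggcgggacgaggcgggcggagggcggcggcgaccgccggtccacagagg
Oscar, chr7:3616158-3616407, minus strand: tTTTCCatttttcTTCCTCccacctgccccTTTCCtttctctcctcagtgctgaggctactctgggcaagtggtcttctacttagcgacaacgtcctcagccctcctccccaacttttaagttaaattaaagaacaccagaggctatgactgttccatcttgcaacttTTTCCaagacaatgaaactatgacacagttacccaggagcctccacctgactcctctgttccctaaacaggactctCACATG
The Ctsk window held 2 matches of GAGGAA, one on each strand. The Oscar window held 3 matches of GGAAA, 1 of GAGGAA and 1 of CATGTG, the last of them next to the start site, and the Tnfrsf11a window, rich in G and C, held none of the 4 motifs. Among 32841 windows of the same length 55.6% held GGAAA, 23.3% GAGGAA, 6.75% TGANTCA and 12.3% CATGTG. The table also held promoters for Calcr and Acp5, with more than one start each, and none for Nfatc1, Dcstamp, Ocstamp and Atp6v0d2.

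The 9 genes differed in how far they ranged over the 12 groups. The values are normalized log2 expression values, on which a step of 1 is a doubling, and levels of different genes are not compared because each probe set has its own brightness. The group means of Atp6v0d2 spanned 6.55 log2 units, more than those of 99.6% of all probe sets, and those of Ctsk (5.24), Dcstamp (4.26) and Tnfrsf11a (3.04) spanned more than those of 98.4%, 96.2% and 90.7%. Acp5 (2.31) and Nfatc1 (1.97) ranged less, and Ocstamp (1.22) lay near the median of 0.97. Oscar (0.45) and Calcr (0.39) were nearly flat. All 36 Calcr values lay between 4.03 and 4.75 and all Oscar values between 4.78 and 5.75, below the median of the table (5.81). The mean of Dcstamp over all arrays (5.44) was below that median too, and Dcstamp ranged widely. Whether the Calcr and Oscar probe sets could have shown a difference was not tested. Of the 9 genes 5 had their highest group mean in the epididymal preparations of 6-month HFD mice.

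**Figure D1:**
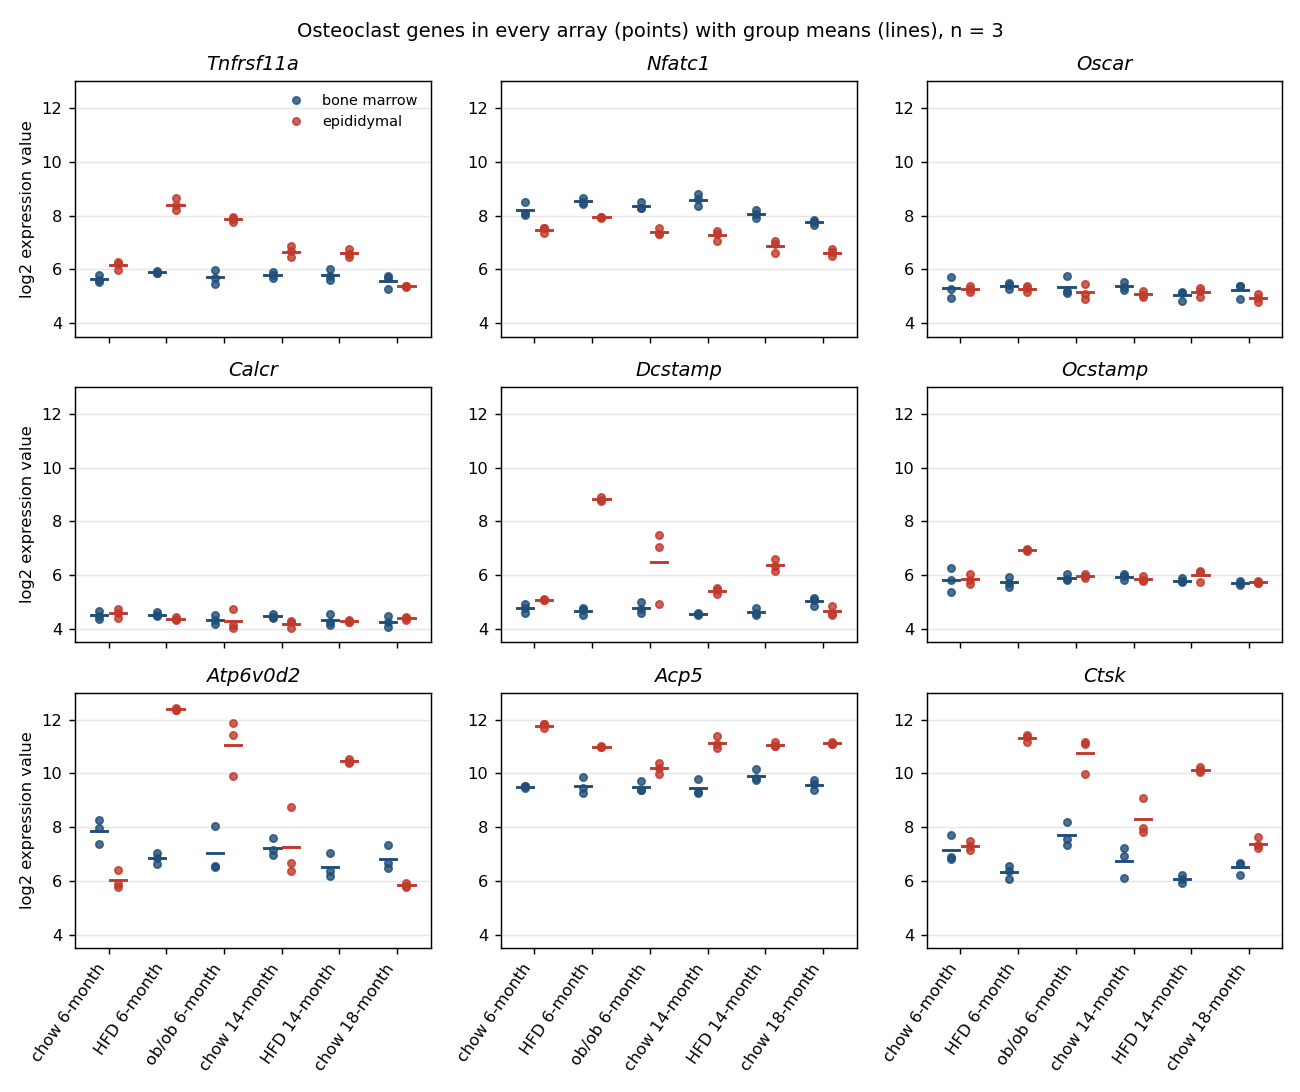
Log2 expression value of each osteoclast gene (1 panel per gene, common vertical axis) in every array, by kind of mouse on the horizontal axis; points are arrays, short lines are means of 3 arrays, red is epididymal and blue is bone marrow. Tnfrsf11a, Dcstamp, Atp6v0d2 and Ctsk have their highest mean in the epididymal arrays of 6-month HFD mice, the 3 epididymal ob/ob arrays are spread widely for Dcstamp (4.93, 7.04 and 7.49), Acp5 is highest in epididymal chow arrays at 6 months, and Calcr and Oscar stay flat.

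The first comparison asks how the epididymal preparations of 6-month mice differed between HFD and chow. Here and below, called means at least a 2-fold difference and, in limma, an adjusted p under 0.05 (Benjamini-Hochberg over the 23410 probe sets that carry a gene symbol). Of the 9 genes 5 were called higher and none lower, against 9.41% of all probe sets called higher. The median difference of the 9 genes was 1.08 log2, beside -0.11 over all probe sets. Both fusion genes were among the 5, with the RANK receptor, the pump subunit and the collagen-digesting protease.

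Tnfrsf11a encodes RANK, the receptor through which RANKL starts osteoclast formation. Its values were 6.20, 5.96 and 6.28 on chow and 8.64, 8.20 and 8.38 on HFD. All 3 HFD arrays lay above all chow arrays, by 2.26 ± 0.14 log2 (difference ± SE, 4.80-fold, adjusted p = 1.84e-12). Nfatc1, the transcription factor downstream of RANK, was 7.53, 7.55 and 7.36 on chow and 7.95, 7.95 and 7.92 on HFD. Those groups did not overlap either, but the difference was 0.46 ± 0.14 log2 (1.38-fold, adjusted p = 0.0112), short of the 2-fold minimum, and with a term for the set of 8 arrays its adjusted p was 0.152.

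The fusion genes followed. Dcstamp encodes a membrane protein without which precursors do not fuse, and its values were 5.11, 5.08 and 5.07 on chow against 8.76, 8.89 and 8.78 on HFD. The difference was 3.73 ± 0.33 log2 (adjusted p = 7.08e-10). The related Ocstamp, needed for fusion as well, was 5.82, 6.04 and 5.65 on chow and 6.96, 6.88 and 6.93 on HFD. Its arrays were apart too, with a smaller difference of 1.08 ± 0.16 log2 (2.12-fold, adjusted p = 3.02e-06), which was 0.78 (adjusted p = 0.00872) with the set term and 0.99 without chow array 3, below 2-fold in both.

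The resorption genes moved in opposite directions. Atp6v0d2 encodes the d2 subunit of the membrane sector of the proton pump, the form found in osteoclasts, and rose from 5.90, 6.39 and 5.79 on chow to 12.36, 12.44 and 12.37 on HFD. That is 6.36 ± 0.46 log2 (adjusted p = 1.96e-11), or 5.32 (adjusted p = 2.99e-07) with the set term. Ctsk, the protease cathepsin K that digests type I collagen, rose from 7.50, 7.31 and 7.14 to 11.16, 11.34 and 11.43, by 3.99 ± 0.31 log2 (adjusted p = 7.07e-11). For neither gene did the groups overlap. Acp5 encodes tartrate-resistant acid phosphatase, the classical stain for osteoclasts. It was 11.69, 11.82 and 11.82 on chow and 11.01, 10.98 and 10.97 on HFD, with every HFD array below every chow array (-0.79 ± 0.16 log2, 1.73-fold lower, adjusted p = 0.000208), which stays under the 2-fold minimum.

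Oscar and Calcr, an ITAM-coupled collagen receptor and the receptor for the resorption-halting hormone calcitonin, overlapped between the diets. Oscar differed by 0.01 ± 0.17 log2 and Calcr by -0.20 ± 0.15 log2 (adjusted p = 0.959 and 0.282). Oscar changed sign with the set term, to -0.58 log2 (adjusted p = 0.0378), but that shift comes from bone marrow arrays alone. Its epididymal values were 5.39, 5.17 and 5.26 on chow and 5.17, 5.38 and 5.31 on HFD.

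At 14 months the same comparison of diets called 2 of the 9 genes, both higher, against 1.13% of all probe sets called higher. The HFD and chow arrays at 14 months lie outside the set of 8. Atp6v0d2 was 8.74, 6.67 and 6.38 on chow and 10.38, 10.53 and 10.43 on HFD, a difference of 3.18 ± 0.46 log2 (9.09-fold, adjusted p = 1.75e-05). Ctsk was 9.08, 7.82 and 7.96 on chow and 10.11, 10.04 and 10.24 on HFD, a difference of 1.84 ± 0.31 log2 (3.59-fold, adjusted p = 0.00012). For both genes all HFD arrays were above all chow arrays, and chow array 1 was the highest of its group. Dcstamp was 5.52, 5.28 and 5.43 on chow and 6.17, 6.34 and 6.59 on HFD. The groups were apart, but the difference of 0.96 ± 0.33 log2 missed both limits (1.94-fold, adjusted p = 0.0557), while it was 1.08 (adjusted p = 0.0304) after quantile normalization and 1.11 (adjusted p = 0.0235) once arrays were centred on their medians. Tnfrsf11a, higher on HFD at 6 months, overlapped at 14 months (6.85, 6.68 and 6.45 on chow, 6.57, 6.46 and 6.75 on HFD), with a difference of -0.07 ± 0.14 log2 (adjusted p = 0.847).

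The diet difference itself was compared between the ages. It was smaller at 14 months than at 6 months for 4 of the 9 genes, against 10.3% of all probe sets called in that direction. The change of the difference was -2.33 ± 0.20 log2 for Tnfrsf11a (adjusted p = 2.05e-09), -2.77 ± 0.47 for Dcstamp (adjusted p = 4.14e-05), -2.15 ± 0.44 for Ctsk (adjusted p = 0.000421) and -3.17 ± 0.66 for Atp6v0d2 (adjusted p = 0.000456), or -2.13 (adjusted p = 0.0418) for Atp6v0d2 with the set term. The HFD groups alone gave a like picture. Between the HFD groups 5 of the 9 genes were lower at 14 months than at 6 months, against 7.22% of all probe sets called lower: Tnfrsf11a (-1.82 ± 0.14 log2), Dcstamp (-2.44 ± 0.33), Nfatc1 (-1.08 ± 0.14), Ctsk (-1.18 ± 0.31) and Atp6v0d2 (-1.94 ± 0.46). The month and the set of 8 arrays lie together in that comparison, and with the set term Ctsk (-1.04, adjusted p = 0.125) and Atp6v0d2 (-0.90, adjusted p = 0.389) did not pass. Nfatc1 was -0.95 both after quantile normalization and without HFD array 1 at 14 months, under the 2-fold minimum.

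Age on chow moved these genes less. None of the 9 was called between 14 and 6 months in the epididymal chow arrays with limma, against 4.53% of all probe sets called in either direction, although 5 had an unadjusted p under 0.05. Ctsk (0.97 ± 0.31 log2, adjusted p = 0.034), Tnfrsf11a (0.51 ± 0.14, adjusted p = 0.0147) and Acp5 (-0.63 ± 0.16, adjusted p = 0.00605) fell short of 2-fold, and Atp6v0d2 (1.24 ± 0.46) had an adjusted p of 0.0746. Chow array 1 at 14 months carried the high end of both resorption genes. Without it, Ctsk was 0.57 log2 (adjusted p = 0.306) and Atp6v0d2 0.50 (adjusted p = 0.578). Without array 3 of that group, Ctsk (1.13) and Atp6v0d2 (1.68) both passed, and Ctsk alone passed without array 2 of that group (1.20) or without 6-month chow array 1 (1.06). With the set term Atp6v0d2 passed (1.24, adjusted p = 0.0403). At 18 months none of the 9 was called against 6 months, with 2.36% of all probe sets called and 3 members at an unadjusted p under 0.05. Nfatc1 (-0.86 ± 0.14 log2), Tnfrsf11a (-0.77 ± 0.14) and Acp5 (-0.66 ± 0.15) were the 3, each under 2-fold. Both resorption genes that were high on HFD were low at 18 months: Atp6v0d2 read 5.92, 5.78 and 5.80, and Ctsk 7.21, 7.32 and 7.62, beside the values of 6-month chow mice given above.

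The ob/ob mice give a second kind of obesity, without the diet. Compared with 6-month chow, the same chow arrays as above, 4 of the 9 genes were higher and 1 lower in the epididymal preparations, against 5.62% and 4.14% of all probe sets. Atp6v0d2 was 9.91, 11.43 and 11.87 in ob/ob arrays, 5.04 ± 0.46 log2 above chow (33.0-fold, adjusted p = 1.95e-09). Ctsk was 9.99, 11.17 and 11.10, 3.44 ± 0.31 log2 above chow (10.9-fold, adjusted p = 1.54e-09), and Tnfrsf11a was 7.75, 7.95 and 7.89, 1.72 ± 0.14 above chow (3.28-fold, adjusted p = 4.11e-10). For these genes every ob/ob array exceeded every chow array, and for Atp6v0d2 and Ctsk ob/ob array 1 was the lowest of its group.

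Dcstamp split the ob/ob arrays, at 4.93, 7.04 and 7.49. Array 1 was below all 3 chow arrays and the other 2 were about 2 log2 units higher. The fitted difference was 1.40 ± 0.33 log2 (2.64-fold, adjusted p = 0.00162), with an adjusted p of 0.0796 when the spread came from the compared groups alone, and it was 0.90 without ob/ob array 3. Acp5 was the gene that went down: at 9.97, 10.20 and 10.39 in ob/ob arrays, it was -1.59 ± 0.16 log2 from chow (3.01-fold lower, adjusted p = 8.29e-09), with no overlap. Ocstamp read 5.97, 5.89 and 6.03, overlapping chow, and differed by 0.12 ± 0.16 log2 (adjusted p = 0.601).

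Between ob/ob and 6-month HFD mice, 2 of the 9 genes were lower in ob/ob, against 6.03% of all probe sets called lower. They were Dcstamp (-2.33 ± 0.33 log2, adjusted p = 5.13e-06) and Atp6v0d2 (-1.31 ± 0.46 log2, adjusted p = 0.0303). The call for Atp6v0d2 was lost with the set term (-0.27, adjusted p = 0.861), without ob/ob array 1 (-0.73, adjusted p = 0.273) and without any 1 of the HFD arrays (adjusted p = 0.065, 0.0749 and 0.0662). Ocstamp (-0.96 ± 0.16), Acp5 (-0.80 ± 0.16), Nfatc1 (-0.55 ± 0.14) and Tnfrsf11a (-0.55 ± 0.14) were lower in ob/ob at adjusted p from 3.43e-05 to 0.00431 and under 2-fold.

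**Figure D2:**
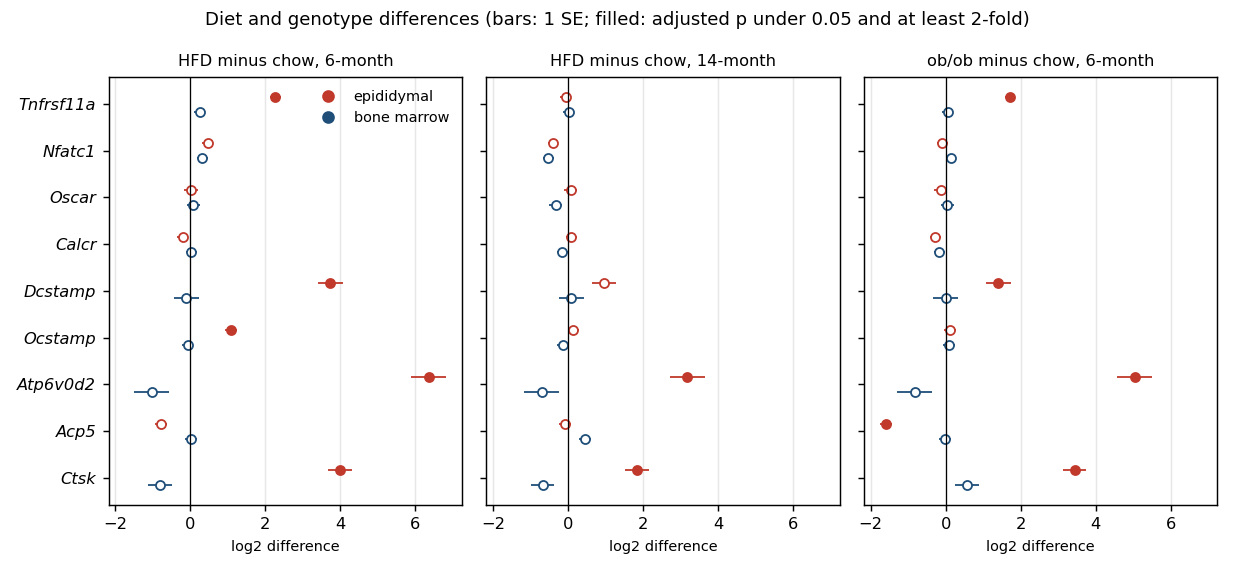
Log2 difference of each gene for HFD minus chow at 6 and 14 months and ob/ob minus chow, in epididymal (red) and bone marrow (blue) preparations; bars are 1 SE and filled points passed the test with at least 2-fold. Epididymal Atp6v0d2 lies at 6.36, 3.18 and 5.04 in the 3 panels, and every bone marrow point is open.

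In the bone marrow preparations no member was called for diet or genotype against chow. With limma 0 of the 9 were called between HFD and chow at 6 months (1.34% of all probe sets called, 3 of the 9 at an unadjusted p under 0.05), 0 at 14 months (0.743%, 3 at an unadjusted p under 0.05) and 0 between ob/ob and chow (0.15%, 0 at an unadjusted p under 0.05). Atp6v0d2 was 8.25, 7.39 and 7.97 on chow and 7.03, 6.62 and 6.87 on HFD at 6 months. The HFD arrays were the lower ones, in the opposite direction to the epididymal arrays, by -1.03 ± 0.46 log2 (adjusted p = 0.217), or -1.72 (adjusted p = 0.0893) with the set term. Ctsk was 6.83, 7.69 and 6.88 on chow and 6.54, 6.06 and 6.36 on HFD, again with all HFD arrays lower (-0.82 ± 0.31, adjusted p = 0.134). Both were called when arrays were weighted by their quality (-1.09 and -1.21, adjusted p = 0.029 and 0.00132), with weights that did not fully converge. The megakaryocyte markers of the same arrays moved too, with 3 of 4 called lower on HFD, against 0.641% of all probe sets called lower. Their list means were 9.76 to 10.94 on chow against 8.31 to 9.26 on HFD, and their part in the result was not tested.

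Ctsk was the exception in ob/ob bone marrow. It read 7.55, 7.35 and 8.19, above all HFD arrays, by 1.38 ± 0.31 log2 (2.60-fold, adjusted p = 0.0118), the only 1 of the 9 called between ob/ob and HFD there, against 0.402% of all probe sets called higher. The call was lost with the spread of those 2 groups alone (adjusted p = 0.199) and without HFD array 2 (1.25, adjusted p = 0.0672). Osteoblast marker means were 7.40 to 8.12 in those ob/ob arrays and 6.88 to 7.40 in the HFD arrays; their part in the result was not tested.

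Age called none of the 9 in bone marrow with limma: 0 between 14 and 6 months on chow (1.18% of all probe sets called, 1 of the 9 at an unadjusted p under 0.05), 0 on HFD (5.47%, 3 of the 9) and 0 between 18 and 6 months on chow (0.991%, 3 of the 9). The change of the diet difference with age called 0 (2.82%, 1 of the 9). Nfatc1 alone had an adjusted p under 0.05 in some of these, always under 2-fold: it was lower on HFD than on chow at 14 months (-0.53 ± 0.14 log2, adjusted p = 0.038), lower at 14 than at 6 months on HFD (-0.47 ± 0.14, adjusted p = 0.0182), lower at 18 than at 6 months on chow (-0.46 ± 0.14, adjusted p = 0.0381), and its diet difference changed with age (-0.85 ± 0.20, adjusted p = 0.0137).

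The difference between depots in the response was tested as an interaction. At 6 months the diet difference was larger in epididymal than in bone marrow preparations for 5 of the 9 genes, against 7.49% of all probe sets called in that direction: Atp6v0d2 (7.39 ± 0.66 log2), Ctsk (4.81 ± 0.44), Dcstamp (3.84 ± 0.47), Tnfrsf11a (2.01 ± 0.20) and Ocstamp (1.16 ± 0.22), with adjusted p from 5.25e-09 to 0.000336. The Ocstamp value was 0.94 without bone marrow chow array 1 and 0.98 with array weights, under 2-fold in both. At 14 months 2 of the 9 were called, against 1.77%: Atp6v0d2 (3.89 ± 0.66, adjusted p = 0.000262) and Ctsk (2.52 ± 0.44, adjusted p = 0.000394). The ob/ob difference was larger in the epididymal arrays for 4 genes, against 6.28% of all probe sets: Atp6v0d2 (5.87 ± 0.66), Ctsk (2.88 ± 0.44), Tnfrsf11a (1.66 ± 0.20) and Dcstamp (1.40 ± 0.47). It went the other way for 1, Acp5 (-1.57 ± 0.22), against 4.49%. Dcstamp there had an adjusted p of 0.0337, between 0.0503 and 0.144 with 1 array left out in 8 of the 12 possible ways, and between 0.0514 and 0.224 under 5 other alternatives.

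Direct comparison of the depots showed 3 patterns. Acp5 was higher in epididymal preparations of every kind of mouse. It ranged from 9.28 to 10.17 over the bone marrow arrays and from 9.97 to 11.82 over the epididymal arrays, with a difference of 2.27 ± 0.16 log2 in 6-month chow mice (4.82-fold), 1.55 ± 0.15 at 18 months and 0.70 ± 0.16 in ob/ob mice, where it was under 2-fold. Nfatc1 ran the other way, with bone marrow higher in every kind of mouse. Its difference was -0.59 ± 0.14 log2 in 6-month HFD mice and -1.32 ± 0.14 in 14-month chow mice. Nfatc1 was called at 14 months on both diets and at 18 months, and the 18-month call fell under 2-fold after quantile normalization (-0.99) and after centring arrays on their medians (-0.96).

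Atp6v0d2 reversed its order between depots with the kind of mouse. On chow at 6 months the bone marrow arrays were all above the epididymal arrays (-1.84 ± 0.46 log2, adjusted p = 0.00158). On HFD at 6 months the epididymal arrays were higher by 5.55 ± 0.46 log2 (46.7-fold), on HFD at 14 months by 3.92 ± 0.46 (15.2-fold) and in ob/ob mice by 4.03 ± 0.46 (16.3-fold). On chow at 14 months the 2 depots overlapped (0.04 ± 0.46, adjusted p = 0.961). Ctsk did not differ beyond its spread on chow at 6 months (0.18 ± 0.31) and was 31.8-fold higher in epididymal arrays on HFD at 6 months. Tnfrsf11a was 5.74-fold higher in epididymal arrays there and 4.49-fold higher in ob/ob mice, and Ocstamp was called in 6-month HFD mice alone (2.27-fold). Oscar and Calcr were called in none of the 6 depot comparisons.

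Counted over the 9 genes, the depot comparison called 1 higher and 1 lower in the epididymal arrays of 6-month chow mice (11.8% and 11.2% of all probe sets), 6 higher in 6-month HFD mice (11.8%), and 4 higher in ob/ob mice (10.8%). In 14-month chow mice it called 2 higher and 1 lower (11.4% and 9.81%), in 14-month HFD mice 4 higher and 1 lower (12.1% and 10.8%), and in 18-month chow mice 1 higher and 1 lower (12.9% and 10.8%). The counts in chow mice were near the background at 6 and 18 months. The counts called higher in 6-month HFD, 14-month HFD and ob/ob mice were above it.

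**Figure D3:**
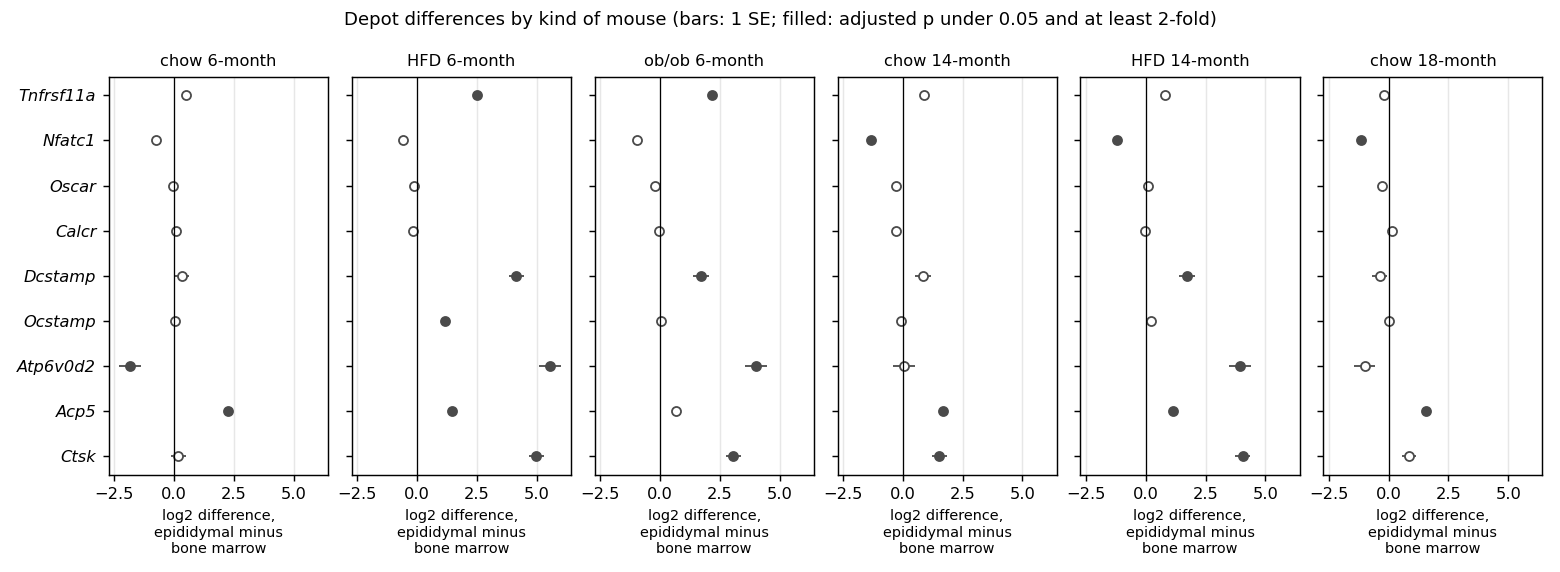
Log2 difference, epididymal minus bone marrow, of each gene in each kind of mouse; bars are 1 SE and filled points passed the test with at least 2-fold. Atp6v0d2 moves from -1.84 in 6-month chow mice to 5.55 in 6-month HFD mice, Acp5 stays to the right of 0 in all 6 panels and Nfatc1 to the left.

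Other genes of the osteoclast pathway were read from lists by role. The ligand RANKL (Tnfsf11) and its decoy osteoprotegerin (Tnfrsf11b) did not pass in epididymal arrays on HFD at 6 months (0.01 ± 0.19 log2, adjusted p = 0.985, and -0.29 ± 0.16, adjusted p = 0.171), and 3 of 21 measured genes of RANK signalling were called higher, none lower. The share of all probe sets in that comparison, against which this and the counts that follow are to be read, was 9.41% higher and 5.21% lower. Of 15 genes of ITAM co-stimulation 10 were called higher, among them the adaptors Tyrobp (4.62 ± 0.25 log2) and Fcer1g (4.07 ± 0.22) and the receptor Trem2 (4.51 ± 0.32). Csf1r, the receptor for macrophage colony-stimulating factor, was 2.60 ± 0.24 log2 higher. Of 9 further osteoclast transcription factors 6 were called higher, with Spi1, which encodes PU.1, at 5.23 ± 0.31 log2 and Mitf at 2.67 ± 0.23. Of 13 inhibitors of osteoclast formation none was called lower and 6 were called higher, Irf8 by 1.12 ± 0.19.

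Of 15 genes of the resorption apparatus 3 were called higher and 2 lower at 6 months on HFD. Tcirg1, the pump subunit a3 that pairs with d2 in osteoclasts, was 3.61 ± 0.23 log2 higher, and Car2, the carbonic anhydrase that supplies protons, was -1.18 ± 0.32 log2 (adjusted p = 0.00405). Chow array 1, which had raised neutrophil markers, was the highest for Car2, and without it the difference was -0.63 (adjusted p = 0.0687), which leaves 1 gene of this list called lower. Atp6v0d1, the d subunit used in most cells, differed by 0.65 ± 0.22 log2 (1.57-fold), beside 6.36 for its counterpart Atp6v0d2. Over 20 pump subunits other than Atp6v0d2, 5 were called higher and 1 lower. Mmp9, a gelatinase of osteoclasts and of neutrophils, was -1.09 ± 0.45 log2 (adjusted p = 0.0581), and -0.46 (adjusted p = 0.427) without chow array 1. Of 14 adhesion and cytoskeleton genes 9 were called higher and 1 lower, while Itgb3, the integrin chain of the osteoclast sealing zone, stayed under 2-fold (0.83 ± 0.27), though not without chow array 1 (1.08, adjusted p = 0.00441). The counts of the other pathway lists in this comparison were the same without that array, a choice made after seeing the data. In the calcitonin receptor family the relative Calcrl was higher (2.63 ± 0.24 log2) and the accessory chain Ramp2 lower (-1.37 ± 0.25), with 1 of 9 genes called higher and 2 lower.

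In ob/ob epididymal arrays 10 of 15 co-stimulation genes and 3 of 9 transcription factors were called higher, with Spi1 at 2.94 ± 0.31 log2 and Tcirg1 at 2.56 ± 0.23, and of 21 RANK signalling genes none was called higher and 6 lower, all of them Fos or Jun family members, against 5.62% of all probe sets called higher and 4.14% lower. Without chow array 1, Akt1 was called higher in that list. At 14 months on HFD 1 of 15 co-stimulation genes was called, Trem2 (1.25 ± 0.32 log2), with 0 of 9 transcription factors and 0 of 20 pump subunits, and 3 of 21 RANK signalling genes were called higher, Fos, Jun and Junb, while Spi1 (0.56 ± 0.31) and Tcirg1 (0.42 ± 0.23) did not pass. The share of all probe sets there was 1.13% higher and 2.44% lower. Whether the lists differed between these comparisons was not tested. For Jun in epididymal adipocytes at 14 months the study lists a lower value on HFD, opposite to the direction found here.

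Macrophage markers moved with these results. The marker lists share Csf1r and Trem2 with the pathway lists, so those genes are read in both. Among the pathway lists, Tcirg1 and Atp6v1c1 stand in the resorption and pump lists, and Tnfrsf11b in the RANK signalling and inhibitor lists. On HFD at 6 months 9 of 10 macrophage markers and 7 of 7 markers of lipid-associated macrophages, the lipid-laden macrophages of obese fat, were called higher in epididymal arrays. Of 7 adipocyte markers 0 were called in either direction, and 9.41% of all probe sets were called higher and 5.21% lower. The mean of those adipocyte markers was still lower on HFD, at 12.40 to 12.44 against 12.74 to 12.76 on chow. Of 8 listed adipocyte markers, Cfd (adipsin) had no probe set under its symbol alone and was left out. The study names adipsin as the most lowered adipose gene of this comparison. The mean log2 value of the 10 macrophage markers was 8.04 to 8.26 on chow at 6 months, 10.81 to 10.91 on HFD at 6 months, 10.15 to 10.92 in ob/ob mice, 9.52 to 10.06 on chow at 14 months, 9.49 to 9.55 on HFD at 14 months and 6.82 to 6.89 at 18 months, and it was 8.91 to 10.11 in the bone marrow arrays. In ob/ob arrays 8 of 10 macrophage markers and 7 of 7 markers of lipid-associated macrophages were called higher than on chow, and 4 of 7 adipocyte markers lower. The share of all probe sets was 5.62% higher and 4.14% lower in that comparison. At 14 months the diet groups overlapped, with 0 of 10 macrophage markers called higher and 1 lower, although Atp6v0d2 and Ctsk were called higher there. All 4 mesothelial markers were called lower on HFD at 14 months, with means of 8.39 to 8.98 on chow and 6.29 to 6.38 on HFD, and their part in the result was not tested. The share of all probe sets for diet at 14 months was 1.13% higher and 2.44% lower.

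The mean of the 7 lipid-associated macrophage markers did separate the diets at 14 months. In epididymal arrays it was 8.15 to 8.26 on chow and 12.00 to 12.07 on HFD at 6 months, 8.61 to 9.95 on chow and 10.75 to 10.85 on HFD at 14 months, 10.45 to 11.90 in ob/ob mice and 7.91 to 7.96 at 18 months. At 14 months 5 of 7 of these markers were called higher on HFD, against 1.13% of all probe sets called higher. Single arrays followed as well. Chow array 1 at 14 months, with the highest Atp6v0d2 and Ctsk of its group, had the highest mean of these markers (9.95, the others 8.98 and 8.61), and ob/ob array 1, lowest in Atp6v0d2, Ctsk and Dcstamp, had the lowest (10.45, the others 11.50 and 11.90). In bone marrow arrays the mean was 8.21 to 8.90. The part of macrophage number in the results on the 9 genes was not tested. Neutrophil markers were raised in epididymal chow array 1 at 6 months (9.29, the other 2 at 5.64 and 5.36), and without that array the same 5 members were called for diet. No array is at 0 for any marker, as the values are log2 intensities.

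**Figure D4:**
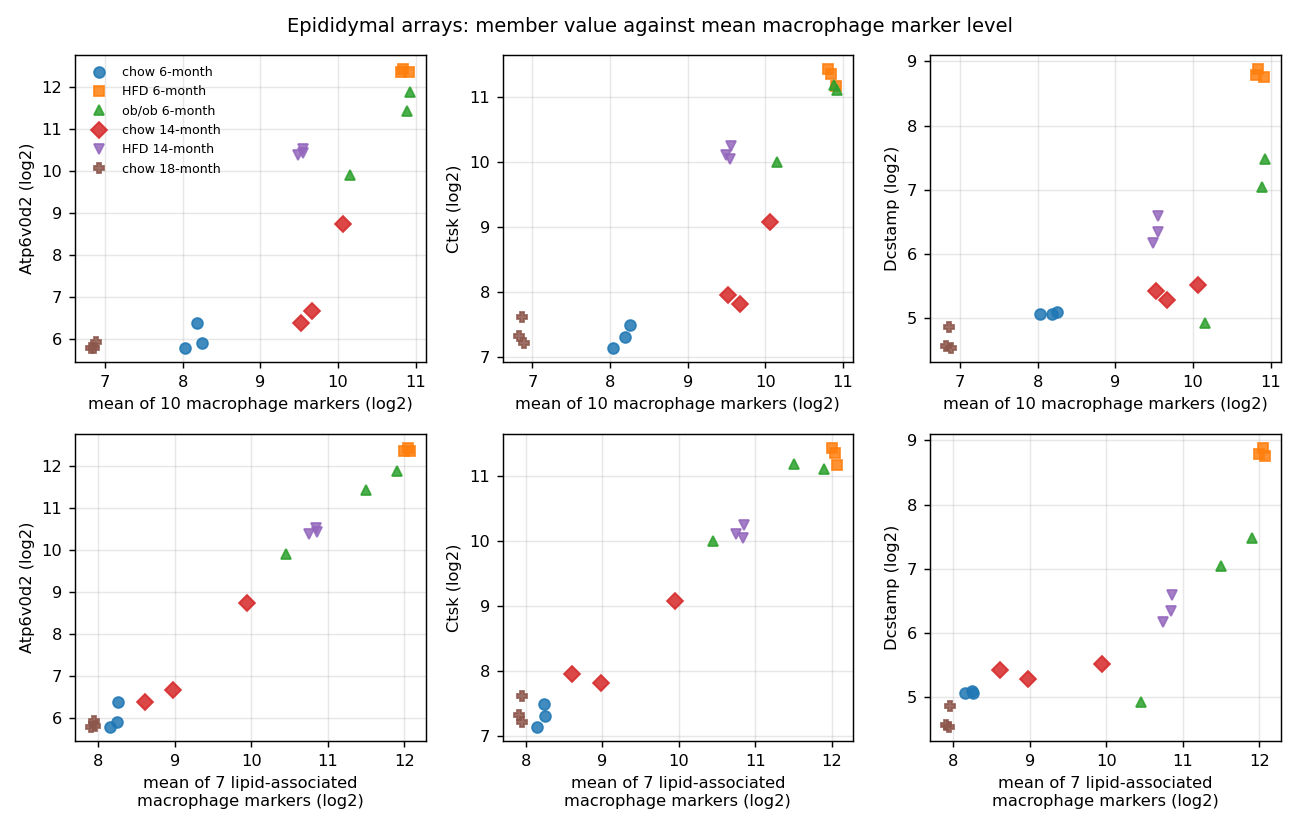
Log2 values of Atp6v0d2, Ctsk and Dcstamp in the 18 epididymal arrays (vertical axes) against the mean log2 value of 10 macrophage markers (top) and of 7 lipid-associated macrophage markers (bottom); each symbol is 1 array and its shape and colour give the kind of mouse. On the upper axis the 14-month HFD arrays (9.49 to 9.55) and chow arrays (9.52 to 10.06) overlap while they lie apart in Atp6v0d2; on the lower axis the arrays fall along one rising band for Atp6v0d2 and Ctsk.

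The genes most like each member were named by Pearson's r over the 12 group means, a description over groups that share their depots. Atp6v0d2 was nearest to Tm4sf19 (r = 0.967) and Trem2 (r = 0.966), Ctsk to Efr3b (r = 0.963) and Gpnmb (r = 0.962), and Tnfrsf11a to Fblim1 (r = 0.976) and Efr3b (r = 0.974). Trem2 and Gpnmb belong to the lipid-associated macrophage list. Dcstamp was nearest to Eif2ak4 (r = 0.986), Ocstamp to Npy (r = 0.986) and Nfatc1 to Mnt (r = 0.977). Acp5 followed other genes, with Sod1 (r = 0.992) and Sh3pxd2a (r = 0.984) nearest. For Calcr and Oscar, which ranged over less than 0.5 log2, the nearest genes are not read. Among the 9 themselves Dcstamp and Tnfrsf11a (r = 0.924), Ctsk and Atp6v0d2 (r = 0.918) and Ocstamp and Dcstamp (r = 0.912) were closest, and Acp5 and Nfatc1 were the most opposed pair (r = -0.756).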

How the data were processed

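RNA of 36 preparations, pooled from several mice in the groups that the methods cover, was hybridized to 1 Affymetrix mouse gene array each, 3 arrays per group. The authors deposited 1 log2 expression value per probe set and array. Per the methods these are gcRMA values, quantile normalized, and per the labels Partek, RMA and GCRMA were used; which summary made the deposited values, and which arrays were normalized together, is not given in the sources used here. The values were used as deposited, and no dye, background or scan data were at hand, so the number of arrays limits the precision.

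Probe sets took the symbols of the platform annotation: 23410 of 35556 carry one, 1621 of them several, and each of the 9 genes has 1 probe set of its own. In R 4.3.3, limma 3.58.1 fitted a mean per group to the 30 arrays without the 18-month groups (lmFit, then eBayes, with 20 residual and 6.36 prior degrees of freedom), and 18-month comparisons used all 36 arrays (24 and 6.71). A call needed a Benjamini-Hochberg adjusted p under 0.05 over 23410 probe sets and at least 2-fold, the thresholds of the methods, which used ANOVA instead. Comparisons sharing a group share its arrays. The named genes are the 9 members, the 3 probe sets most like each over the 12 group means, and 21 pathway genes listed by role. Members, lists and tests were chosen with earlier results of these data known, which holds for the set of 8 arrays too.

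The fit was tested on simulated data with independent normal noise for the epididymal 6-month diet comparison (23410 probe sets). Of 50 probe sets shifted by 0.5 log2, 1 was called, because the 2-fold minimum shuts out most shifts of that size. Of 50 shifted by 1.5, 49 were called, as were all 50 shifted by 3 or by 5, with 3 calls among 23210 unshifted ones. Pearson's r between arrays of a group was at least 0.955 and no 2 columns were identical. Labels number the 3 arrays of each group, but deviations from group means of same-numbered arrays correlated above 0.1 in 3 of 18 pairs, so the numbers were not taken to pair samples. Alternatives were no fold minimum, all 36 arrays, the compared groups alone, quantile normalization, median centring, probe sets above the table median, all probe sets, no moderation, array weights, a term for the set of 8 arrays, a block for the replicate number, and dropping each array in turn. Python 3.11.15 and matplotlib 3.10.9 made the summaries and plots.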

Additional observations from a re-analysis of the deposited data

Results flagged for a closer look

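The response of a member differed between ages or depots, by the interaction test of limma with at least 2-fold, in 16 cases. For the diet difference in epididymal preparations, 14-month minus 6-month, they were Tnfrsf11a (-2.33), Dcstamp (-2.77), Ctsk (-2.15) and Atp6v0d2 (-3.17), all in log2. For the diet difference at 6 months, epididymal minus bone marrow, they were Tnfrsf11a (2.01), Dcstamp (3.84), Ocstamp (1.16), Ctsk (4.81) and Atp6v0d2 (7.39). For the diet difference at 14 months, epididymal minus bone marrow, they were Ctsk (2.52) and Atp6v0d2 (3.89). For ob/ob minus chow, epididymal minus bone marrow, they were Tnfrsf11a (1.66), Dcstamp (1.40), Ctsk (2.88), Atp6v0d2 (5.87) and Acp5 (-1.57). For Atp6v0d2 the bone marrow differences, none of them called, were -1.03 and -0.70 for diet at 6 and 14 months and -0.82 for ob/ob, against 6.36, 3.18 and 5.04 in epididymal arrays. All groups hold 3 arrays, too few to look for single outlying arrays by rule.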

How the results depend on the processing

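Over 25 comparisons and all alternatives, 426 of 452 counts of called members stayed within 1.5 times the reported count. Of 3993 single differences 3907 kept their call and did not reverse. A reversal was a change of sign with an adjusted p under 0.05 in the reported or the alternative fit. Changes of sign without such an adjusted p were not counted. With no fold minimum the counts were 6 for epididymal ob/ob minus HFD (2 with it), 3 for epididymal chow 14 minus 6 months (0), 3 for epididymal chow 18 minus 6 months (0), 7 for the epididymal diet by month term (4), 4 and 5 for the depots on chow at 6 and 14 months (2 and 3), and 1 each, Nfatc1, for bone marrow HFD minus chow at 14 months, HFD 14 minus 6 months, chow 18 minus 6 months and diet by month (0). More of all probe sets pass without a fold minimum too. The shares given above hold for the 2-fold rule, so these counts cannot be read against them. With the compared groups alone bone marrow ob/ob minus HFD gave 0 (1), and with quantile normalization the depots at 18 months gave 1 (2). Epididymal ob/ob minus HFD gave 1 (2) with probe sets above the table median, no moderation or the set term. Array weights gave 2 for bone marrow HFD minus chow at 6 months (0). The set term gave 1 for epididymal chow 14 minus 6 months (0) and 3 for epididymal HFD 14 minus 6 months (5). It turned Oscar to -0.58 for epididymal HFD minus chow at 6 months (0.01), by an offset from bone marrow arrays. Leaving out 1 array gave 0 to 2 for epididymal chow 14 minus 6 months, 0 to 1 for bone marrow ob/ob minus HFD and 1 to 2 for epididymal ob/ob minus HFD. The replicate block moved no count by over 1.5 times and changed no single call (5 members for epididymal HFD minus chow at 6 months). Same-numbered arrays were not taken as paired: 7 of 18 correlated best with their own number.

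Centring each array on its median moved the share of all called probe sets that were higher from 31.6% to 50.1% for epididymal HFD minus chow at 14 months, from 57.6% to 47.6% for ob/ob minus chow, from 40.3% to 28.5% for ob/ob minus HFD, from 39.2% to 50.5% for diet by month, from 44.1% to 63.6% for diet by depot at 14 months and from 35.1% to 62.8% for epididymal chow 18 minus 6 months. It moved the median of all probe sets by at most 0.18 log2, and the counts of members called stayed within 1.5 times. A call needs at least 2-fold by rule, so an uncalled member is not shown to be unchanged.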
